A study of Mus musculus with 21 samples.

Results

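Protein glycosylation, the building and trimming of sugar chains on proteins in the endoplasmic reticulum and Golgi, was followed through 6 enzyme genes in cultured cells of mouse fat. The 6 genes, Alg2, Manea, B4galt1, Galnt12, Gne and Casd1, were chosen by symbol, as the rows that carry these names among 30961 gene models, and all 6 were found once in the table. They act at different places of protein glycosylation. Alg2 adds mannose to the lipid-linked oligosaccharide that is later moved onto asparagine residues, the precursor of all N-glycans. Manea, the Golgi endo-alpha-mannosidase, removes glucose-capped mannose from N-glycans that escaped the usual glucosidases. B4galt1 adds galactose to the antennae of N-glycans and to other glycans, and in the lactating mammary gland it also makes lactose. Galnt12 adds the first N-acetylgalactosamine of O-glycans to serine or threonine. Gne carries out the first steps of sialic acid synthesis, and Casd1 adds O-acetyl groups to sialic acids.

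The cells were the stromal vascular fraction, the mixture of stromal, vascular and blood cells left when digested fat is freed of adipocytes. It came from inguinal subcutaneous fat, without lymph nodes, of female C57BL/6J mice aged 8 to 12 weeks, with no further sort and no genetic change. Primary cultures (P0) on uncoated plastic in a growth medium with serum were sampled fresh on day 0 and on days 3, 7, 14, 21 and 28. The P1 group was day 28 cells that had been passaged and grown for 28 more days, so passage and added time in culture cannot be told apart. Each of the 7 groups had 3 RNA-seq libraries, 21 in all, made from 15 ng of total RNA with a kit that does not mark strand. The labels do not say whether libraries of a group came from separate mice, pools or dishes, so p-values reflect only the scatter of these libraries, which may be technical. The study's title names cardiomyocyte differentiation, and the time course shows how levels moved from fresh tissue into long culture.

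The deposited values were log2 levels centred on each gene model, with floors for low values. Levels below are given as a scaled level, the linear value recovered from these steps, on which the floors lie at 16 for no reads and 30 for few. Recovered reads that cleared the floor numbered 2659211 to 4261988 per library. Fresh libraries had 7385 to 7406 gene models that cleared it, and P1 libraries 4456 to 4701. Correlations between libraries of a group were 0.937 to 0.962. Many symbols of the table sit beside values of other genes, so a symbol was used only where the expressed gene models lined up with the reference exons to within 1000 bases, which held for 439 of 16184 protein-coding genes. All 6 enzyme genes were among them. In GRCm38 with GENCODE M21, B4galt1 lies on chr4:40804602-40854005 (minus strand), Gne on chr4:44034075-44084177 (minus), Galnt12 on chr4:47091909-47123070 (plus), Alg2 on chr4:47465067-47474333 (minus), Manea on chr4:26324506-26346891 (minus) and Casd1 on chr6:4600839-4643355 (plus). None of the 6 shares exon bases with another annotated gene.

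The 250 bases before the RefSeq start site are shown for the 4 of the 6 genes with an entry among the RefSeq promoters (GRCm38.p6). There is 1 start each, written 5′ to 3′ on the gene's strand. Capitals mark the motifs searched on both strands, the GC box (GGGCGG or CCGCCC), the CCAAT box (CCAAT or ATTGG) and the E-box (CACGTG), and no marked motif overlaps another. Galnt12 and Alg2 are named only. The windows are chr4:40853985-40854234 for B4galt1, chr4:26346653-26346902 for Manea, chr4:44084178-44084427 for Gne and chr6:4600661-4600910 for Casd1. By the GENCODE M21 bounds given above, most of the Manea window lies inside the annotated gene. Parts of the B4galt1 and Casd1 windows do so as well.
B4galt1: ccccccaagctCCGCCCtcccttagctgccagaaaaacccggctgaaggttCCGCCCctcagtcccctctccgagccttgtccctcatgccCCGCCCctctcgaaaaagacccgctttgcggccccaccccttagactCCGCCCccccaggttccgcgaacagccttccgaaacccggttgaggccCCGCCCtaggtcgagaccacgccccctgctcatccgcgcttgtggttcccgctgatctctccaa
Manea: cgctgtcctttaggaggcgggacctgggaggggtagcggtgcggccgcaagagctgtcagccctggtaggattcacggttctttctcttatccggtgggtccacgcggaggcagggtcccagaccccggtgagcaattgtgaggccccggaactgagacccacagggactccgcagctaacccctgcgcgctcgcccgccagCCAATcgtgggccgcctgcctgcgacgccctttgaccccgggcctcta
Gne: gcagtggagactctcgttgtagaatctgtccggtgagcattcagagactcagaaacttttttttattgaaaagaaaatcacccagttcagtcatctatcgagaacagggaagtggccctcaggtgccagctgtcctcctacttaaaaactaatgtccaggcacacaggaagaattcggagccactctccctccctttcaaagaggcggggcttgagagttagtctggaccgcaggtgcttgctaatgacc
Casd1: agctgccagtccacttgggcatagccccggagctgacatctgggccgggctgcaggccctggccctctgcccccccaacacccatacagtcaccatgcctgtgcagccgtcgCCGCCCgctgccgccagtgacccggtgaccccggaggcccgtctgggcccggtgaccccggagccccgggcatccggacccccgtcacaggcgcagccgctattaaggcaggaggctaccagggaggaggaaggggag
The B4galt1 window holds 5 GC boxes, Casd1 holds 1, and Manea holds 1 CCAAT box. The Gne window holds none of the 3 motifs. Of 32851 windows of this length in the same table, 32.7% hold a GC box, 33.8% a CCAAT box and 6.02% an E-box. The share of G and C was 66.4% for B4galt1, 67.2% for Manea, 48.8% for Gne and 71.6% for Casd1, against a median of 52.4% over all windows. Gne and Casd1 each have a further start in the table, with 62.0% and 39.2% G and C. These are descriptions of letters and not of sites in use, and their bearing on the courses of the genes was not tested.

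Per kilobase of exon, the day 0 scaled level was 1080 for B4galt1, 310 for Casd1, 214 for Gne, 186 for Alg2, 149 for Manea and 43.0 for Galnt12. By day 28 of primary culture the order on the same scale was B4galt1 at 1510, Alg2 at 469, Manea at 415, Casd1 at 205, Gne at 199 and Galnt12 at 134. B4galt1 was thus the highest of the 6 and Galnt12 the lowest at both days, while Alg2 and Manea passed Casd1 and Gne in between. Lengths were merged exons of GENCODE M21, and the annotation used for counting is not named. Close ranks, such as Casd1 and Gne at day 28, are therefore approximate. All 6 were above the floor in all 21 libraries. The fewest reads behind a value were 2775 for B4galt1, 833 for Gne, 554 for Casd1, 378 for Manea and 333 for Alg2. Galnt12 had as few as 33 reads in a library (95% Poisson interval 22.7 to 46.3) and at most 460, so its values are the least precise. The interval covers counting error only.

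**Figure D1:**
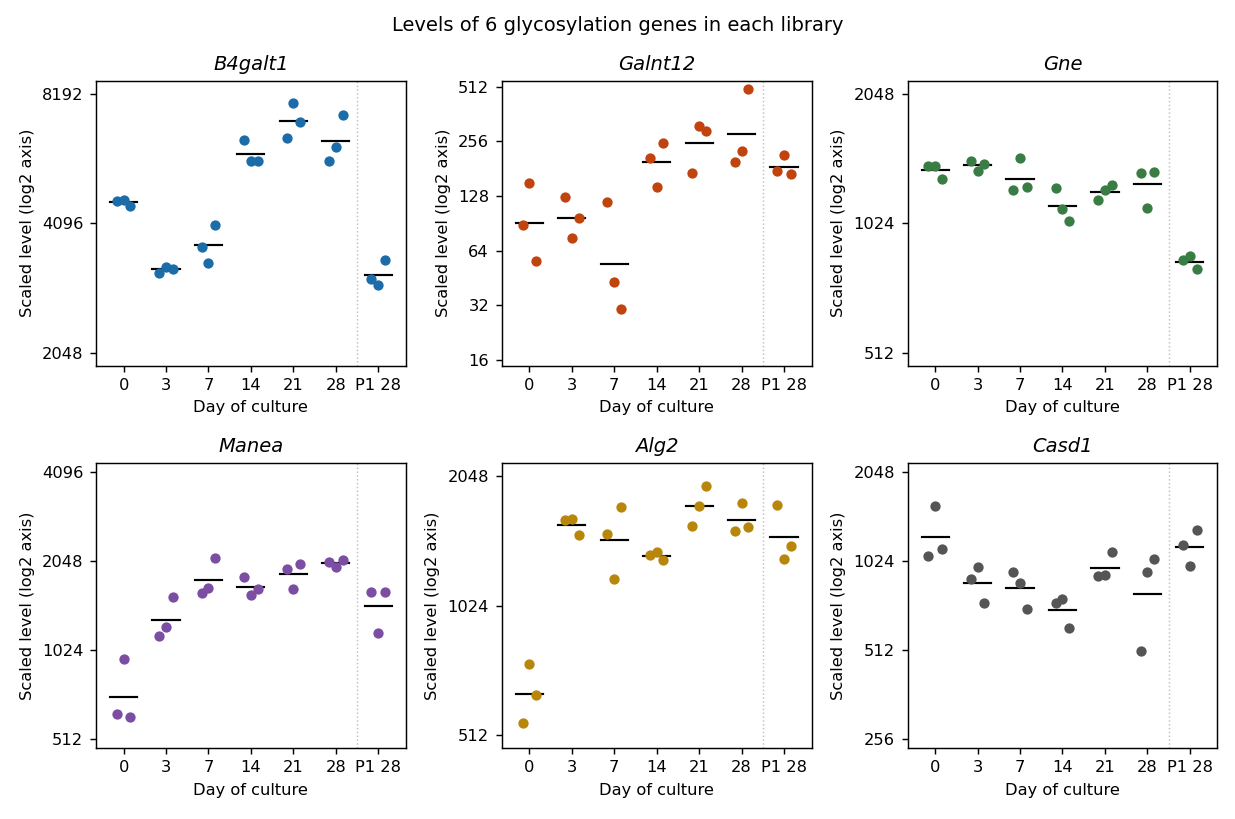
Scaled level of each enzyme gene (log2 axis) in each of the 21 libraries by day of culture, with P1 to the right of the dotted line; points are libraries and bars are means of the log2 values. Alg2 and Manea stand lowest at day 0, B4galt1 falls to day 3 and is highest at day 21, and Galnt12 scatters most.

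Alg2, the mannosyltransferase of the N-glycan precursor, was higher in every later group than in the fresh cells. Its scaled level was 547, 748 and 635 in the 3 day 0 libraries and 1619, 1629 and 1491 at day 3. The lowest later library, 1183 at day 7, was above the highest fresh one. From day 0 to day 28 the means of the 6 primary groups were, in order, 643 ± 101 (SD, n = 3), 1580 ± 76.7, 1474 ± 278, 1337 ± 30.9, 1751 ± 190 and 1620 ± 134. Alg2 was 2.47-fold higher at day 3 than at day 0 (log2 change 1.31 ± 0.14 SE, adjusted p = 7.91e-07, limma). At day 28 it was 2.53-fold higher than at day 0 (log2 1.34 ± 0.14, adjusted p = 4.02e-07, limma). Between days 3 and 28 the means stayed between 1337 and 1751, and no step from one day to the next passed the test. In the order of the 7 group means, day 0 and day 14 were the only neighbours whose libraries did not overlap.

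Manea, the Golgi mannosidase, was also higher on each later day than in the fresh cells. The day 0 libraries read 621, 957 and 605, the day 3 libraries 1145, 1225 and 1552 and the day 7 libraries 1592, 1665 and 2097. The 3 groups did not overlap, with library 2 the highest of the fresh cells. Manea was 1.82-fold higher at day 3 than at day 0 (log2 0.87 ± 0.17 SE, adjusted p = 0.00047, limma) and 2.49-fold higher at day 7 (log2 1.32 ± 0.17, adjusted p = 5.94e-06, limma). From day 3 to day 7 the log2 difference was 0.45 ± 0.17, which did not pass the test (adjusted p = 0.157, limma). From day 7 on the means were 1785 ± 273 (SD, n = 3), 1675 ± 118, 1855 ± 189 and 2019 ± 62.7, the last being 2.84-fold over day 0 (log2 1.51 ± 0.17, adjusted p = 1.03e-06, limma). In the order of means, P1 at 1460 ± 255 stood between day 3 and day 14, and from day 3 upward each group overlapped its neighbour.

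B4galt1, the galactosyltransferase, moved down and then up. The day 0 libraries read 4621, 4633 and 4495, and the day 3 libraries 3146, 3247 and 3206. At day 7 they read 3602, 3306 and 4054, still all under the fresh cells. From day 14 on every library of primary culture was above them, starting with 6394, 5708 and 5724 at day 14. Day 21 followed with 6476, 7810 and 7058, and day 28 with 5723, 6169 and 7326. B4galt1 was 1.43-fold lower at day 3 than at day 0 (log2 -0.52 ± 0.10 SE, adjusted p = 0.000222, limma) and 1.26-fold lower at day 7 (log2 -0.33 ± 0.10, adjusted p = 0.00741, limma). It was 1.29-fold higher at day 14 (log2 0.37 ± 0.10, adjusted p = 0.00264, limma) and 1.55-fold higher at day 21 (log2 0.63 ± 0.10, adjusted p = 2.42e-05, limma). The largest step between adjacent days was the rise from day 7 to day 14, of 1.63-fold (log2 0.70 ± 0.10, adjusted p = 4.71e-05, limma).

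The early fall of B4galt1 depended on how the libraries are scaled. Under the deposited scaling, the 3170 gene models that cleared the floor in each library had median log2 changes from the fresh cells of -0.26, -0.25, -0.56, -0.34 and -0.33 in the order of the 5 later days. When each library was scaled to its median gene model, the B4galt1 log2 change was -0.21 at day 3 (adjusted p = 0.0275, limma) and -0.00 at day 7 (adjusted p = 0.961, limma). Under quantile normalization it was -0.17 at day 3 (adjusted p = 0.101, limma) and -0.04 at day 7 (adjusted p = 0.706, limma). Its later rise was larger under both, with log2 0.96 and 0.83 for day 14, then 0.81 and 0.72 for day 28. The rises of Alg2 and Manea were likewise larger under both. At day 28 these were 1.68 under median scaling and 1.77 under quantile normalization for Alg2, and 1.84 and 1.91 for Manea.

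Galnt12, which starts O-glycans, was low in all groups and higher late in primary culture. Its day 0 libraries read 88.7, 150 and 56.2, the day 7 libraries 119, 42.8 and 30.7, and the day 28 libraries 197, 225 and 496. Day 28 lay wholly above day 0, with library 3 well above the other two, while day 7 overlapped day 0. Galnt12 was 3.09-fold higher at day 28 than at day 0 (log2 1.63 ± 0.47 SE, adjusted p = 0.00619, limma) and 2.75-fold higher at day 21 (log2 1.46 ± 0.47, adjusted p = 0.0123, limma). At day 14 it was 2.15-fold higher (log2 1.11 ± 0.47, adjusted p = 0.046, limma), with overlapping libraries. The day 14 call was lost without day 0 library 1 (adjusted p = 0.0924, limma), day 0 library 3 (0.206), day 14 library 1 (0.0969) or day 14 library 3 (0.14). The day 21 call was lost without day 0 library 3 (log2 1.11, adjusted p = 0.0727, limma). Without day 7 library 1 the day 7 level passed as lower than day 0 (log2 -1.32, adjusted p = 0.0173, limma), where with it the log2 difference was -0.75. From day 7 to day 14 Galnt12 rose 3.63-fold (log2 1.86 ± 0.47, adjusted p = 0.00771, limma).

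Gne, the entry enzyme of sialic acid synthesis, varied least in primary culture. The group means lay between 1126 ± 102 (SD, n = 3) at day 14 and 1398 ± 37.5 at day 3, with 1360 ± 52.7 at day 0. The time course F test over days 0 to 28 did not pass for Gne (adjusted p = 0.0579, limma). Its only call in primary culture was a 1.21-fold lower level at day 14 than at day 0 (log2 -0.27 ± 0.09 SE, adjusted p = 0.0167, limma), which was lost without day 14 library 3 (log2 -0.22, adjusted p = 0.0835, limma). The sign of this difference turned with the scaling. It was 0.32 under median scaling (adjusted p = 0.0177, limma) and 0.33 under quantile normalization (adjusted p = 0.0104, limma), both higher at day 14. Set against the median gene model, Gne was also higher at day 3 (log2 0.35, adjusted p = 0.0125, limma), whereas the deposited scaling gave 0.04.

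Casd1, the sialic acid O-acetyltransferase, had its highest mean in the fresh cells. The day 0 libraries read 1061, 1568 and 1128, the day 14 libraries 739, 760 and 607, and the day 28 libraries 506, 942 and 1040. Both later groups lay under all fresh libraries, with day 28 spread over a wide range. Casd1 was 1.77-fold lower at day 14 than at day 0 (log2 -0.82 ± 0.23 SE, adjusted p = 0.00426, limma) and 1.56-fold lower at day 28 (log2 -0.64 ± 0.23, adjusted p = 0.0214, limma). At day 7 it was 1.49-fold lower (log2 -0.57 ± 0.23, adjusted p = 0.0412, limma). These 3 calls were lost under median scaling, with log2 changes of -0.24, -0.23 and -0.30 in the order of the days, and under quantile normalization, with -0.23, -0.21 and -0.23. The day 28 call was also lost without day 0 library 2 (log2 -0.47, adjusted p = 0.112, limma) or day 28 library 1 (log2 -0.32, adjusted p = 0.159, limma). The day 7 call was lost without day 0 library 2 (adjusted p = 0.187, limma), day 0 library 3 (0.0523), day 7 library 2 (0.0688) or day 7 library 3 (0.147). In the order of the 7 means, from day 14 up to day 0, every pair of neighbours overlapped.

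Counted over the 6 genes against day 0, limma calls at an adjusted p under 0.05 came to 3 at day 3, with 2 higher and 1 lower, where 51.4% of 7765 tested gene models were called. Day 7 gave 4 calls, 2 in each direction (background 54.4%). Day 14 gave 6, with 4 higher (background 65.3%). Day 21 gave 4, none of them lower (background 59.3%), and day 28 gave 5, with 4 higher (background 60.3%). Since most gene models were called as well, no such count is read as particular to the 6 genes. In the order of the 5 days, higher calls made up 10.8%, 12.0%, 9.38%, 12.4% and 13.2% of tested gene models, and lower calls 40.6%, 42.4%, 55.9%, 46.8% and 47.1%. The median log2 change of the 6 genes was 0.07, -0.20, 0.72, 1.00 and 0.91 on these days, against -0.42, -0.44, -0.74, -0.54 and -0.54 over all tested. The tested set includes gene models at the floor in many libraries, unlike the 6 genes. Over the 3170 gene models above the floor in each library, the medians were -0.26, -0.25, -0.56, -0.34 and -0.33. Groups did not overlap in 4, 4, 5, 5 and 5 of the 6 genes, against 59.3%, 59.6%, 67.3%, 61.2% and 61.9% of all tested. These 5 comparisons share the day 0 libraries. Median scaling gave 3, 3, 5, 4 and 4 higher calls on the 5 days and a single lower one, of B4galt1 on day 3, where higher calls made up 19%, 21.0%, 23.2%, 21.2% and 21.1% of all tested and lower calls 29.6%, 31.0%, 32.5%, 33.6% and 34.8%. Quantile normalization gave 3, 3, 5, 5 and 5 higher calls and 0 lower, where 22.7%, 23.6%, 25.3%, 25.0% and 25.1% of all tested were higher and 20.5%, 21.6%, 24.8%, 23.5% and 24.4% lower. The time course F test called 5 of the 6 genes (background 71.4%), all but Gne, Casd1 among them at an adjusted p of 0.0493. Leaving out 1 library at a time, it called 4 to 6.

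**Figure D2:**
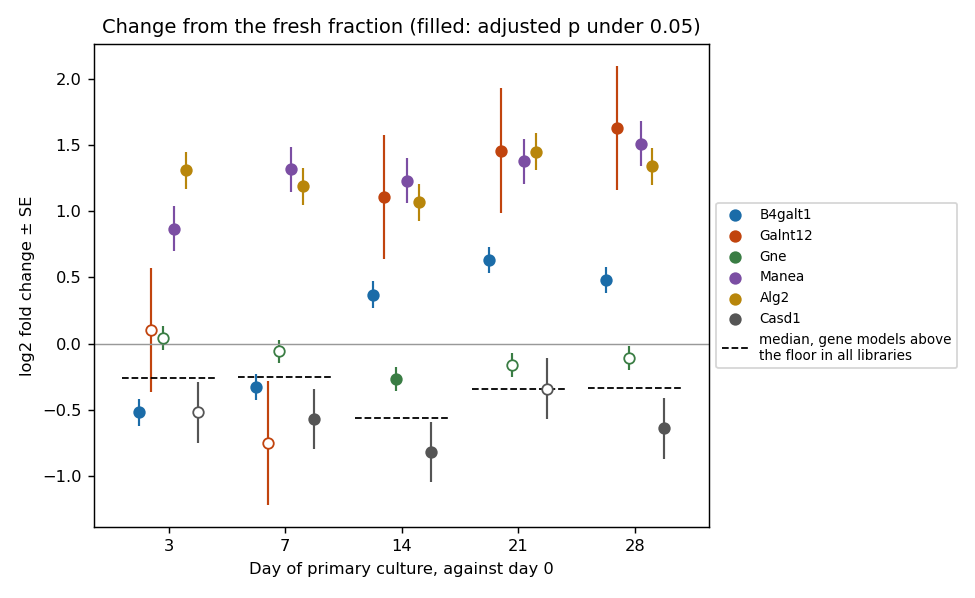
Log2 change from day 0 (limma estimate ± SE) of the 6 enzyme genes on 5 days of primary culture; filled points passed an adjusted p under 0.05, and dashed lines give the median change of the gene models that cleared the floor in each library. Alg2 and Manea lie above 0.8 on each day, B4galt1 crosses 0 between day 7 and day 14, and Casd1 lies on or below the median line.

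The step from day 0 to day 3, given above, held 3 calls. From day 7 to day 14, 2 of the 6 genes were called, B4galt1 and Galnt12, both higher (background 24.3% in either direction and 4.28% for higher calls). From day 3 to day 7 none was called, where 7.08% of tested gene models were, and none from day 14 to day 21 either, where 6.28% were. From day 21 to day 28 none was called, where 8 of 7765 gene models (0.103%) were, and 415 had an unadjusted p under 0.05. At an unadjusted p under 0.05, limma gave 1 of 6 from day 3 to day 7, Manea, where 17.2% of tested gene models were under it. It gave 2 of 6 from day 14 to day 21, B4galt1 and Alg2 (background 20%), and 0 of 6 from day 21 to day 28 (background 5.34%).

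Several marker genes also changed over the culture. In bulk RNA, fewer cells of a type and less RNA per cell cannot be told apart. Of 8 stromal markers, 2 had a supported symbol, Svep1 and Mmp3. Their summed scaled level was 502 to 705 in the fresh cells, 938 to 1195 by day 3 and 804 to 1039 by day 7. It was 3337 to 5984 by day 14 and 12857 to 17004 by day 28. Of 11 markers of mammary or other epithelium, Esrp1 and Aqp3 summed to 3762 to 4274 in the fresh cells, 2039 to 2210 by day 3 and 46 to 60, the floor, by day 28. Aqp3 was at the floor in all libraries from day 3 on. Of 7 adipocyte markers, Lep and Aqp7 summed to 1638 to 1762 in the fresh cells, although adipocytes had been removed, and to at most 63 in any later library. Of 7 macrophage or osteoclast markers, Tfec and Atp6v0d2 were at the floor in the fresh cells and summed to 245 to 466 by day 14, to 2156 to 3607 by day 28 and to 252 to 332 in P1. Of 6 B lymphocyte markers, Pax5 was at the floor throughout, and with Cd72 it summed to 192 to 293 in the fresh cells and 652 to 940 by day 28. The only T lymphocyte marker usable of 6, Sit1, was at the floor in all libraries. Of 7 cell cycle genes, 4 summed to 916 to 1117 in the fresh cells, to 3794 to 4263 by day 3 and to 539 to 1047 by day 28. None of 5 endothelial or 4 mural markers was usable. The part of these cells and of cell division in the changes of the 6 enzyme genes was not tested.

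P1 cells were set against P0 cells of day 28, which were taken equally long after plating. B4galt1 and Gne were lower in P1, 2 of the 6 genes (background 14.7%), and the other 4 genes did not pass the test. B4galt1 read 3034, 2937 and 3367 in P1, all under the 5723 of the lowest P0 library. It was 2.05-fold lower (log2 -1.04 ± 0.10 SE, adjusted p = 1.22e-06, limma), and the fall held at log2 -0.71 under median scaling (adjusted p = 6.97e-06, limma) and -0.70 under quantile normalization (adjusted p = 1.58e-05, limma). Gne read 842, 861 and 801 in P1 against 1344, 1111 and 1345, a 1.51-fold lower level (log2 -0.60 ± 0.09, adjusted p = 0.000304, limma). This call was lost under median scaling (log2 -0.27, adjusted p = 0.128, limma) and under quantile normalization (log2 -0.31, adjusted p = 0.051, limma). Over all tested gene models, 12.9% were lower and 1.85% higher, and the median log2 change was -0.54 over the 6 genes and -0.22 over all tested. Over the 3170 gene models above the floor in each library it was -0.27. The groups did not overlap in 3 of the 6 genes, against 26.1% of all tested. Several marker sums were also lower in P1 than in P0 at day 28. Tfec and Atp6v0d2 summed to 252 to 332 against 2156 to 3607, Cd72 with Pax5 to 46 to 68 against 652 to 940, and Svep1 with Mmp3 to 5464 to 8077 against 12857 to 17004. Their part was not tested.

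Among the other 4 genes, Manea read 1611, 1166 and 1603 in P1 and 2038, 1950 and 2071 in P0, with no overlap, but its log2 difference of -0.48 ± 0.17 SE did not pass (adjusted p = 0.0745, limma). Alg2 differed by -0.12 ± 0.14 (adjusted p = 0.658, limma) and Galnt12 by -0.60 ± 0.47 (adjusted p = 0.479, limma). Casd1 had the only positive difference of the 6 under the deposited scaling, where Alg2 also turned positive under median scaling (log2 0.20) and quantile normalization (log2 0.17), neither passing. Casd1 read 1156, 985 and 1309 in P1 against 506, 942 and 1040 (log2 0.53 ± 0.23, adjusted p = 0.135, limma). Relative to the median gene model, Casd1 passed as higher in P1 (log2 0.86, adjusted p = 0.00765, limma), and so it did under quantile normalization (log2 0.81, adjusted p = 0.0143, limma). Both scalings gave 1 gene higher, Casd1, and 1 lower, B4galt1. Over all tested gene models, 5.24% were higher and 4.83% lower under median scaling, and 5.34% and 6.48% under quantile normalization.

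**Figure D3:**
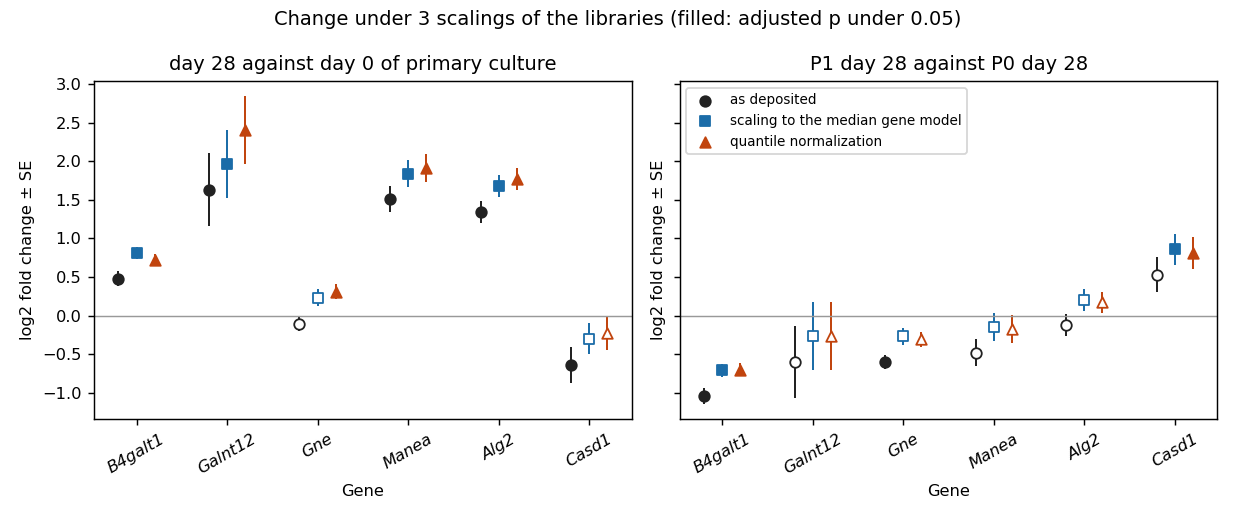
Log2 change (limma estimate ± SE) of the 6 enzyme genes from day 0 to day 28 of P0 (left) and from P0 to P1 at day 28 (right) under the deposited scaling, scaling to the median gene model and quantile normalization; filled symbols passed an adjusted p under 0.05. Both other scalings lie above the deposited one for each gene, so that Gne changes sign on the left and Casd1 becomes a call on the right. Under all 3, Alg2, Manea and Galnt12 rise on the left and B4galt1 falls on the right.

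Of 152 other glycosylation genes listed by role, 4 had a supported symbol and all 4 were tested, 2 of 26 for sialic acid (Nans and Slc35a1), 1 of 22 for O-GalNAc glycans (C1galt1) and 1 of 14 for fucose (Fut9). No other gene of lipid-linked oligosaccharide assembly, trimming or galactose extension was usable, so the steps beside Alg2, Manea and B4galt1 are not described here. Against day 0, all 4 were called at day 7, with 1 higher and 3 lower. On each of days 3, 14, 21 and 28, 3 of the 4 were called, all lower. Under median scaling and quantile normalization the lower calls numbered 3 on days 3 and 7 and 2 from day 14 on, with Slc35a1 lost, and Nans was called higher on days 7 and 14 under both and on day 3 under quantile normalization. With 51.4% to 65.3% of all gene models called, these counts are read beside their values.

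C1galt1, which adds galactose to the O-GalNAc that Galnt12 and its relatives attach, read 2417, 1913 and 1838 at day 0 and 570, 659 and 757 at day 28. It lay below the fresh cells in every later library and was 3.10-fold lower at day 28 (log2 -1.63 ± 0.20 SE, adjusted p = 1.94e-06, limma). Galnt12 was higher at day 28 while C1galt1 was lower, and both directions held under median scaling (log2 1.96 and -1.30) and quantile normalization (log2 2.40 and -1.27). Fut9, a fucosyltransferase of the Lewis x structure, read 324, 172 and 120 at day 0 and was at the floor in all libraries of days 3, 14, 21 and 28 and of P1. Its mean at day 0 was at least 6.84-fold higher than in each of these groups, taken against the floor of 30. The epithelial and adipocyte sums were likewise highest at day 0, and their part was not tested.

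Slc35a1, which carries activated sialic acid into the Golgi, read 2534, 2132 and 2480 at day 0 and 1564, 1478 and 1205 at day 3, 1.69-fold lower (log2 -0.76 ± 0.15, adjusted p = 0.000493, limma). Its lower level at day 28 (log2 -0.58 ± 0.15, adjusted p = 0.0035, limma) was lost under median scaling (log2 -0.24, adjusted p = 0.115, limma). Nans, the sialic acid synthase, had a mean log2 difference of 0.44 ± 0.15 at day 7 from day 0 (adjusted p = 0.0195, limma). Its exons share bases with Trim14 on the other strand, and those of Slc35a1 with Gm22849. Reads that lie in the shared bases of either pair cannot be told apart. In P1 against P0 at day 28, Nans (log2 -0.58 ± 0.15, adjusted p = 0.0139, limma) and Slc35a1 (log2 -0.46 ± 0.15, adjusted p = 0.0499, limma) were lower, as was Gne. Both calls were lost under median scaling (log2 -0.25 for Nans and -0.14 for Slc35a1), as the Gne call was.

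**Figure D4:**
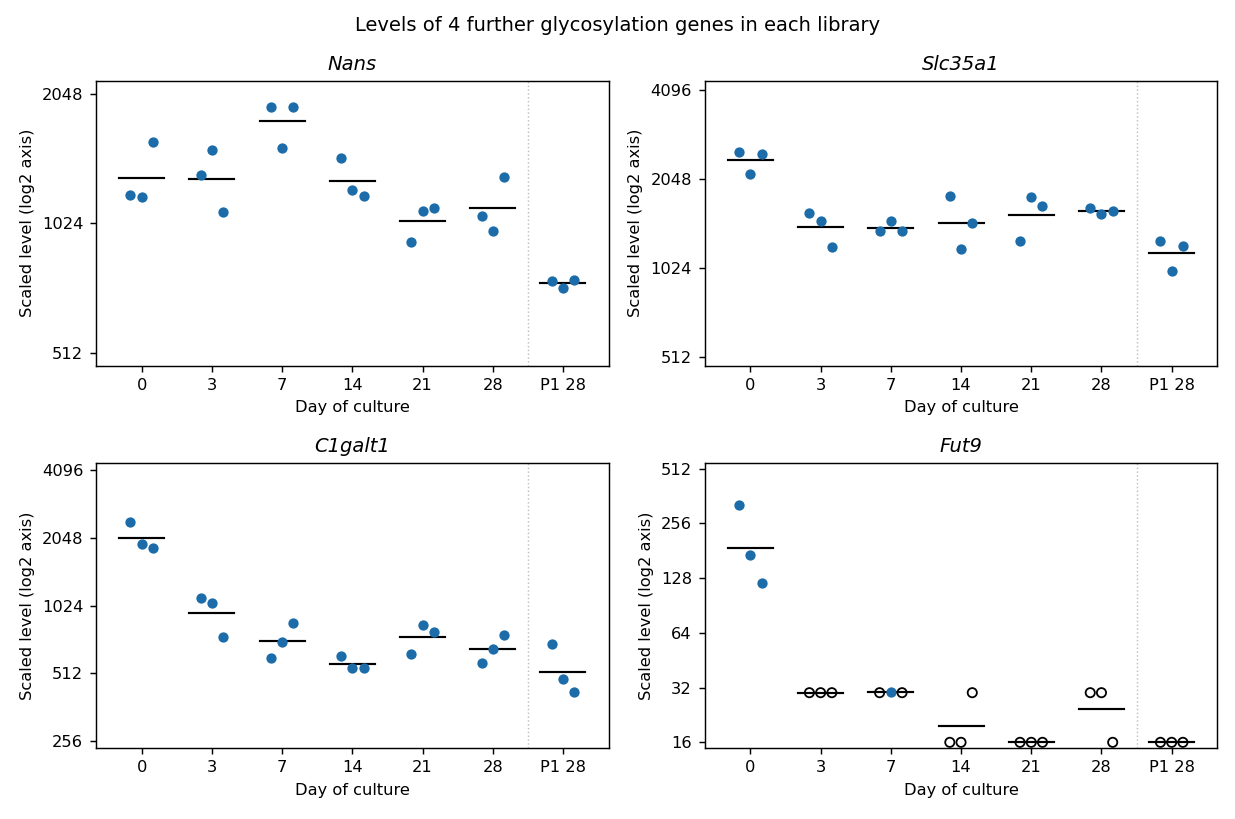
Scaled level (log2 axis) of 4 further glycosylation genes in each of the 21 libraries by day of culture, with P1 to the right of the dotted line; filled points are above the floor, open circles at a floor, and bars are means of the log2 values. C1galt1, Slc35a1 and Fut9 are highest at day 0, and Nans is highest at day 7 and lowest in P1.

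The genes most like each enzyme gene were found by Pearson correlation of log2 levels over the 21 libraries. The search covered 338 other tested genes with a supported symbol, out of 7765 tested gene models. The enzyme genes themselves were left out of it, so likeness among the 6 is not given. All of them share the same libraries and depth. Supported symbols lay only on chromosomes 4, 6 and 9, so the search was not genome-wide. For Alg2 these were Msantd4 (r = 0.922) and Gdf6, a growth factor of the BMP family (r = 0.882). For Manea they were again Msantd4 (r = 0.914), and Tstd3 (r = 0.907). For B4galt1 they were the B cell and myeloid surface protein Cd72 (r = 0.897) and the folate hydrolase Ggh (r = 0.856), and for Galnt12 the matrix protease Mmp3 and the phosphatase Pdp1 (both r = 0.783). For Gne they were the mitochondrial carrier Slc25a51 (r = 0.854) and the Golgi traffic GTPase Rab2a (r = 0.852). For Casd1 they were Ctnnal1 (r = 0.725) and Tox (r = 0.722), the lowest values among the 6. These correlations follow group means as well as spread within groups and are given as descriptions.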

How the data were processed

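Total RNA of 21 mouse libraries (7 groups, 3 each) was amplified to cDNA and sequenced, per the labels' protocols. It came from either of a pair of extraction kits, and the labels do not say which kit served which library. A single table was deposited by the authors, with log2 values, each gene model centred to sum to 0 over the libraries (largest absolute sum 3.2e-06). The genome was GRCm39, per the submitters' processing notes, while for aligner, counter, annotation and scaling the sources used here give no name. All 21 columns matched a sample, and 0 columns of values were left without one.

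Repeated lowest values lie a step of 30 to 16 apart. From 24416 gene models with both floors the factor of each library and the reads were recovered, and 13797 of 13797 values tested were whole reads within 0.1 read. Differences do not depend on reading the floors as 16 and 30, but scaled levels do. Reads under the floor are missing, so no count test was run and the full depth is unknown. The recovery resolved 3694 of 4000 simulated gene models, 99.97% of those correctly.

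Symbols were checked with GENCODE M21 by a hidden Markov model of the offset (up to 1600000 bases in steps of 100, posterior at least 0.9). In a simulation with 2439 genes 91.3% of 1259 correctly placed genes passed, as did 23 displaced ones. It was drawn from the model's own settings with 1259 genes in place, while 439 of 16184 real genes were supported. It therefore does not give the share of wrong symbols among those 439. Supported genes were above the floor in some library in 82.7% of cases, against 45.7% of 6354 genes in displaced blocks. The offset search itself used which genes were above the floor, so this difference is no independent check of the symbols.

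A count test, or limma on log2(value + 1), had been planned for other units. Since the values were log2 already, limma 3.58.1 (R 4.3.3, trend) was applied to the log2 levels without a pseudocount. It was fitted on 7765 gene models above the floor in at least 3 libraries, in 1 fit of 7 groups, with Benjamini-Hochberg adjustment within each of 10 comparisons and of the F test, and calls at an adjusted p under 0.05. On simulated day 3 and day 0 groups of 7765 gene models it recovered 62 of 100 changes of 1 log2 unit and 95 of 100 of 2, with 11 false calls. No other gene models were changed in the simulation, while 51.4% were called in the real comparison. The shares recovered therefore do not give the power of the real test. Named genes were the 6 enzymes, the 2 genes most correlated with each, and listed glycosylation and marker genes with a supported symbol. A listed item is not reported here. The members and lists were chosen with earlier results of these data known. Python 3.11.15, numpy 2.4.6, pandas 2.3.3, scipy 1.17.1 and matplotlib 3.10.9 served the other steps. Alternatives were other scalings, filters, floors, a pseudocount of 16, no trend, groups compared alone, the replicate number as a block, and each library left out.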

Additional observations from a re-analysis of the deposited data

How the results depend on the processing

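Of 26 calls on the 6 genes in the 10 comparisons, all 26 held with the zero floor raised to the low floor, with a filter at 9 libraries, with a pseudocount of 16 and without the trend. Without a filter 23 held, and with groups compared alone 22 held. Then 1 gene was called from day 7 to day 14 in place of 2, since Galnt12 was lost (adjusted p = 0.102, limma). The F test called 4 genes in place of 5 without a filter, without the trend, with median scaling, with groups compared alone and with the replicate block, and 6 with the zero floor raised. Quantile normalization kept 19 calls, lost 6 and turned 1, and scaling to the median gene model kept 20, lost 5 and turned 1. The turned call is that of Gne at day 14. Gne also passed with the opposite sign in comparisons not called before. Under quantile normalization its log2 changes on days 7, 14, 21 and 28 were 0.27, 0.33, 0.27 and 0.31, and under median scaling those on days 7 and 14 were 0.27 and 0.32. Values that passed under no scaling changed sign as well, such as Galnt12 at day 7 (0.01 under quantile normalization) and Gne from day 7 to day 14 (0.05 and 0.06). Both scalings raised the later groups relative to day 0 for each of the 6 genes. Median scaling moves all gene models of a library by the same amount. The deposited median log2 changes from day 0 were -0.25 to -0.56 over the 3170 gene models above the floor in each library. The recovered factor that turns reads into scaled level was 1.64, 1.67 and 1.22 in the day 0 libraries. In the later libraries of primary culture it was 0.769 to 1.22. Why the medians were below 0, and the part of these factors in it, was not tested. With a library left out, 144 of 156 values of called results held and 12 were lost. The number of genes called then ranged, for days 3, 7, 14, 21 and 28 against day 0, from 3 to 3, 3 to 5, 4 to 6, 3 to 4 and 4 to 5. It was 2 to 2 from day 7 to day 14, 2 to 2 for P1 against P0, 4 to 6 for the F test, and 0 to 0 for the other 3 steps. All calls of Alg2 and Manea against day 0 held under each alternative. Same-numbered libraries did not deviate together (63 pairs, median r = -0.002, from -0.118 to 0.12, against 0.003 for 126 other pairs). Each library's correlations with libraries of other groups were also averaged by replicate number. Of the 3 numbers, its own had the highest mean for 7 of 21 libraries. The numbers were therefore not taken as pairs. With the replicate number as a block, 25 of 26 calls held and the Galnt12 call at day 14 did not (adjusted p = 0.0615, limma). Depth limits Galnt12 most, at 33 to 460 reads a library.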
